A study of Caenorhabditis elegans with 3 samples.

Results

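The genes examined here encode CDC-48 and the core of its main cofactor in Caenorhabditis elegans: the paralogues cdc-48.1 and cdc-48.2, ufd-1, and the paralogues npl-4.1 and npl-4.2. They are 5 of 19973 nuclear protein-coding genes. They were chosen by their shared function and by what the deposited lists of ELT-3 binding held at their promoters and gene bodies, so the counts and ranks of those lists are given as a description with no test. For each gene, the entries of every list with a summit in its promoter window or gene body were collected. The promoter window began 1000 bp before the annotated 5′ end and ended 200 bp after it.

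CDC-48, called p97 or VCP in mammals, is a hexameric ATPase of the AAA family that uses ATP to pull ubiquitinated proteins out of complexes, membranes or chromatin and unfold them, often ahead of the proteasome. UFD-1 and NPL-4 form a heterodimer that binds CDC-48 and recruits substrates carrying ubiquitin chains. The trio is known for its part in degradation of misfolded proteins from the endoplasmic reticulum and in taking the replication machinery off DNA.

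ELT-3, a transcription factor of the GATA family, is best known from the worm epidermis. Its binding was mapped by chromatin immunoprecipitation and sequencing (ChIP-seq), which recovers the DNA attached to a protein, in whole L1 larvae of both sexes, pooled, of unknown age. All worms were of strain OP75, which carries the unc-119(ed3) allele on chromosome III and the transgene wgIs75, a stably expressed ELT-3 with GFP-FLAG at its C terminus. The 3 libraries made from sonicated chromatin formed 1 group with 2 biological replicates, since the 2 technical libraries of replicate 2 were aligned jointly and count as 1 sample. What drives the transgene, and whether untagged ELT-3 was also made, is not given in the sources used here. With no second group, and with the named control experiment not analysed here, an entry at a gene cannot be told apart from one that the antibody or the chromatin would give without the tagged protein.

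The files were lists of intervals, each with a summit, a signal and a q-value deposited by the authors. Replicate 1 had 10775 entries, replicate 2 had 4080 and the pooled alignments had 10082. Of the replicate 2 entries 25 were mitochondrial, against 0 in each other list, and its places and percentiles count them unless nuclear entries are named. The 1202 entries kept after a test of irreproducible discovery rate, the IDR list, were the 1202 strongest pooled entries. Signals have a scale of their own in each list and are compared only within it, where place 1 is the strongest. Weak entries may be background, since q-values ran to 0.960 in replicate 1 and 0.961 in the pool. In replicate 2 they ran to 0.00371 but did not follow signal, with 0.00224 at a signal of 2.86 and 0.00290 at 3.07. Low q-values in replicate 2 therefore do not set its weak entries apart from background. The lists hold no read counts, so depth is unknown and 0 entries at a gene means only that none was listed.

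The sequences of the entries at the cdc-48 promoters are given first, because the presence or absence of the GATA motif in them is described further on. Coordinates are those of ce11 (WBcel235), and each sequence runs 5′ to 3′ on the strand of its gene. Capitals mark matches to WGATAR, the motif of GATA factors, which was searched on both strands as AGATAA or with a last G as AGATAG, and with a first T as TGATAA or, ending in G, TGATAG. The first is the IDR entry of cdc-48.1 (chrII:10563490-10563636, minus strand), with its summit at base 68 and no capitals because it has no match. The second is the pooled entry of cdc-48.2 (chrII:8137501-8137796, plus strand), with its summit at base 149 and 1 match at base 16.
cdc-48.1 IDR entry: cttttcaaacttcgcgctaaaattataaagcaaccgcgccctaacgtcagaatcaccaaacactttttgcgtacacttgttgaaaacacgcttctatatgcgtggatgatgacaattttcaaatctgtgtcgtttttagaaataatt
cdc-48.2 pooled entry: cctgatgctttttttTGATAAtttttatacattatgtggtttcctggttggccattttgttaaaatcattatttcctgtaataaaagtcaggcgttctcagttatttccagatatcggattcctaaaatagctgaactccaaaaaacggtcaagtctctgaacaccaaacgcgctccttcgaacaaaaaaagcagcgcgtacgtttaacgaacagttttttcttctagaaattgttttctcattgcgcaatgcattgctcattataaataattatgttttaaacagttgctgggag

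The 5 genes did not have the same entries. cdc-48.1 had a promoter entry in all 4 lists, cdc-48.2 in the pooled and replicate 1 lists only, and ufd-1, npl-4.1 and npl-4.2 in none. Only 2 of the 4 lists are separate replicates, since the pool combines them and the IDR list is its strongest part. In the IDR list 1 of the 5 had a promoter summit, beside 3.44% of all protein-coding genes (688 of 19973). In the pooled list 2 of the 5 had one, beside 17.9% of all genes, and in the replicate 1 list 2 of the 5, beside 18.7%. In the replicate 2 list 1 of the 5 had one, beside 5.3%. Within the gene bodies, 0 of the 5 had a summit in any list, beside 1.65% of all genes in the IDR list, 19.4% in the pool, 20.6% in replicate 1 and 10.9% in replicate 2. These lists entered the choice of the genes, and nothing is read from the difference between the gene counts and the background.

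**Figure D1:**
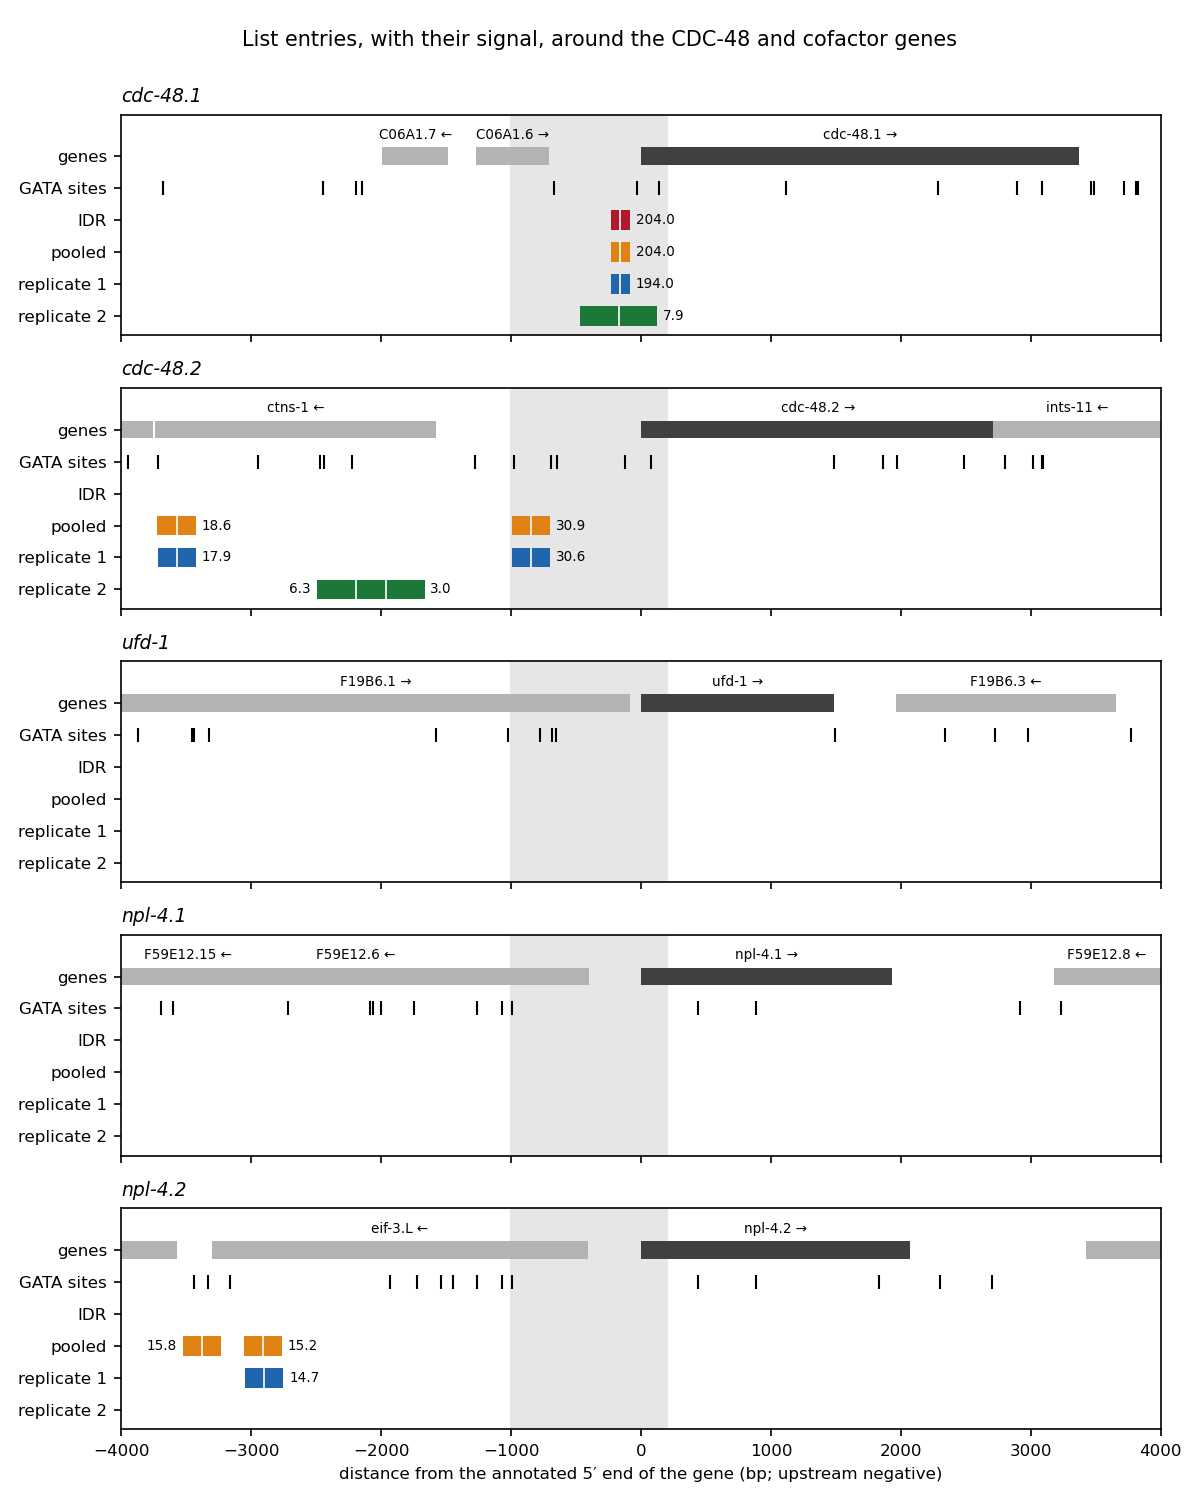
Entries of the 4 lists around the 5 genes, drawn by distance in bp from each annotated 5′ end, upstream negative. Bars are list entries with their signal beside them and a white line at the summit, dark grey bars are the 5 genes, light grey bars their neighbours, ticks are WGATAR matches and shading marks the promoter window. Only cdc-48.1 has a bar in all 4 rows, and the windows of ufd-1, npl-4.1 and npl-4.2 are empty.

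cdc-48.1 (WBGene00007352, chrII:10560036-10563407, minus strand, 5 exons) encodes the first of the paralogous ATPases. Its IDR entry, the same in the pooled list, had a signal of 204.0 and lay with its summit at -162 bp from the 5′ end. This was place 2 of 1202 in the IDR list and place 2 of 10082 in the pool, 4.25 times the IDR median of 48.0. Its q-value of 0.000484 was the lowest in the list, which 1034 of the 1202 entries share, so the q-value does not order the strong entries. In replicate 1 the gene had a signal of 194.0, again at place 2, of 10775, with the summit at the same base. In replicate 2 the signal was 7.91 at place 26 of 4080, with the summit at -172 bp and a q-value of 0.000657. That place counts mitochondrial entries. Among the 1202 strongest nuclear entries of replicate 2, the percentile of cdc-48.1 was 99.1. The entry was therefore near the top of both replicate lists, with summits 10 bp apart.

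The shape of the interval differed between lists. The IDR entry was 147 bp wide and reached from -229 to -83 bp, in the space between the 5′ end and the upstream gene C06A1.6, which lies on the same strand with a gap of 704 bp. Most IDR entries were 296 bp wide, and cdc-48.1 was among 7 narrower ones, which were 75 to 175 bp wide and held places 1, 2, 4, 5, 6, 9 and 19 by signal. The replicate 1 entry was 146 bp wide. Every replicate 2 entry was 596 bp wide, and that of cdc-48.1 reached from -469 bp across the 5′ end to 126 bp inside the gene, past the first coding base, 17 bp after the 5′ end. C06A1.6 had 0 entries in its own promoter window or gene body in any of the 4 lists.

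Few IDR entries overlapped an entry of replicate 2, and the overlap of the replicate 1 list with the replicate 2 list was not counted. A replicate 2 entry overlapped 117 of the 1202 IDR entries by at least 1 bp (9.73%). Among these 117, cdc-48.1 was first by IDR signal and second by replicate 2 signal, while their median IDR place was 486. By gene, 70 of the 688 genes with an IDR promoter summit also had a replicate 2 promoter summit (10.2%), and cdc-48.1 is 1 of these 70.

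The other 69 genes were ordered by how close their signal percentiles lay to those of cdc-48.1, summing the differences over the pooled, replicate 1 and replicate 2 lists. The closest were pfd-1, which encodes a subunit of the chaperone prefoldin, and its neighbour F01G4.6, with a summed difference of 3.21 percentile points. They share 1 peak on chromosome IV with an IDR signal of 76.1 at place 148 and a replicate 2 signal of 8.62 at place 21, and summits at -339 and -270 bp from their 5′ ends. Next was B0410.3 on the X chromosome, with a summed difference of 5.27, an IDR signal of 96.5 at place 58 and a replicate 2 signal of 4.61 at place 197. Percentiles saturate at the top of a list: the IDR signal of cdc-48.1 was above those of all 3.

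cdc-48.2 (WBGene00008053, chrII:8138496-8141230, plus strand, 5 exons) encodes the second paralogue, and its entry was weaker and farther away. It had 0 IDR entries. Its pooled entry had a signal of 30.9 at place 1585 of 10082 and a q-value of 0.0256, and its replicate 1 entry covered the same interval with a signal of 30.6 at place 1597 of 10775 and a q-value of 0.0197. The pooled signal of cdc-48.1 was 6.60 times that of cdc-48.2. The IDR list ended at a signal of 35.4994, the next pooled entry had 35.4773, and the cdc-48.2 entry stood 383 places below the end of the list at 87.1% of its lowest signal.

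The summit of this 296 bp entry lay at -847 bp from cdc-48.2 and also at -731 bp from the 5′ end of ctns-1. ctns-1, a homologue of the lysosomal cystine transporter cystinosin, runs the other way from a 5′ end 1577 bp upstream, and the entry lies in both promoter windows. In replicate 2 no summit fell in the promoter window of cdc-48.2. Replicate 2 had 2 entries farther upstream, inside ctns-1, with summits at -2197 bp (signal 6.32, place 43 of 4080) and -1964 bp (signal 3.05, place 1250). The first is a strong entry of that list, but no replicate 1 or pooled entry overlapped it. Elsewhere inside ctns-1, the pool had a summit at -3575 bp (signal 18.6, place 4953) and replicate 1 at -3574 bp (signal 17.9, place 5271). The nearest IDR summit lay at -6597 bp, with a signal of 49.0.

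**Figure D2:**
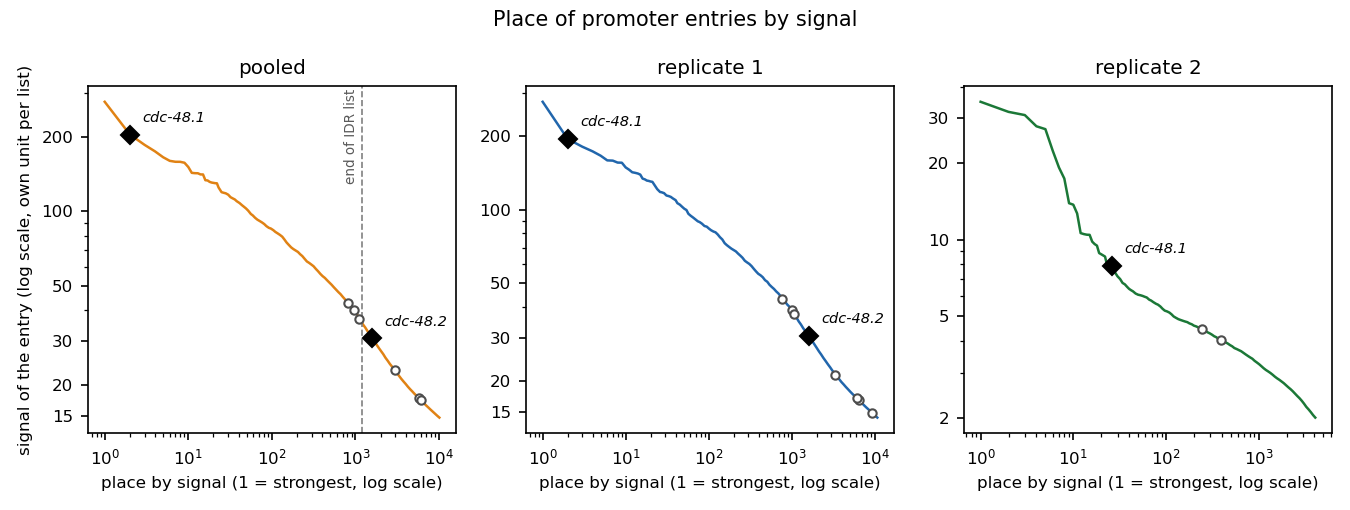
Signal against place by signal in the pooled, replicate 1 and replicate 2 lists, as a line through selected places of each list. Both axes are logarithmic, and each list has its own signal unit. Filled diamonds are the promoter entries of cdc-48.1 and cdc-48.2, open circles those of other CDC-48 partner and ER-associated degradation genes, and the dashed line is the end of the IDR list. cdc-48.1 stands at place 2, 2 and 26 in the 3 lists, and cdc-48.2 stands at place 1585 in the pool, to the right of the dashed line.

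WGATAR matches were not found within 50 bp of the summits of the cdc-48 promoter entries. Within 50 bp of the cdc-48.1 summit there were 0 WGATAR matches and 0 matches to the shorter word GATA, and the whole IDR entry had 0 of either. The nearest WGATAR match lay 128 bp from the summit. The wider replicate 2 entry held 1 match. Among all IDR summits in promoter windows, 28.3% had a WGATAR match within 50 bp (150 of 530, 95% exact interval 24.5 to 32.3). Having none at the summit was thus the more common state. In the whole entry 54.0% had one, but most entries were 296 bp wide and that of cdc-48.1 was 147 bp. Among all IDR summits, in promoter windows or not, 38.9% had a match within 50 bp (468 of 1202). Of the 25 strongest of these 3 had one (95% exact interval 2.55 to 31.2%).

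The cdc-48.2 entry also had 0 WGATAR matches within 50 bp of its summit. It held the single match printed in capitals above, 128 bp from the summit, and 2 GATA matches within 50 bp, 1 on each strand of the overlapping letters in gatatc. Of pooled summits in promoter windows 28.0% had a WGATAR match within 50 bp (882 of 3149) and 52.3% had GATA. The base composition around the summits was 38.6% GC at cdc-48.1 and 43.6% GC at cdc-48.2, against a median of 47.5% within 50 bp of IDR promoter summits (quartiles 41.6 to 52.5). A match is a run of letters and says nothing of binding, and no match says only that these letters are not in the window.

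Over the whole promoter window, inside and outside the entries, all 5 genes had WGATAR matches, as was the case in 93.3% of promoter windows of protein-coding genes. cdc-48.1 had 3 matches, at -673, -34 and 136 bp, and 57.1% of windows had at least 3. The match at -34 bp is the one nearest to its 5′ end. cdc-48.2 had 5 matches, at -980, -692, -647, -127 and 76 bp, and 22.2% of windows had at least 5. ufd-1 had 3, at -778, -683 and -651 bp. npl-4.1 and npl-4.2 had 1 each, at -997 bp, and 22.1% of windows had at most 1. ufd-1 had as many matches as cdc-48.1 and 0 entries, but 5 genes are too few to relate matches to entries. The 3 ufd-1 matches lie inside the upstream gene F19B6.1. The matches of npl-4.1 and npl-4.2 lie inside their upstream genes F59E12.6 and eif-3.L. The matches nearest to the 5′ end on its upstream side in cdc-48.1, cdc-48.2 and ufd-1 are shown with their flanks on the strand of the gene (chrII:10563428-10563449, chrII:8138361-8138382 and chrIV:12331528-12331549), where each match reads as WGATAR on the other strand.
cdc-48.1 site at -34: cgttcccaCTATCAttttggac
cdc-48.2 site at -127: ttgaagttTTATCTtgaaaacc
ufd-1 site at -651: ttcataatTTATCAaagtttct

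ufd-1 (WBGene00006733, chrIV:12329408-12330890, minus strand, 6 exons) encodes the ubiquitin-binding partner of NPL-4. It had 0 entries in its promoter window and 0 in its gene body in each of the 4 lists. Its nearest pooled summit lay at -7783 bp, with a signal of 18.5 at place 5058, and 72.1% of protein-coding genes had a pooled summit nearer to them. Replicate 1 had its nearest summit at the same -7783 bp, replicate 2 at -20855 bp, and the IDR list at -41197 bp. For IDR summits, 54.1% of genes had a nearer one and the median distance over all genes was 36079 bp. The gene has 2 annotated transcripts with starts 115 bp apart, and only 85 bp separate it from the gene F19B6.1 upstream on the same strand. F19B6.1 itself had 0 entries in its promoter window and gene body. The 85 bp, the stretch that belongs to neither gene, hold 0 WGATAR matches (chrIV:12330891-12330975, minus strand).
ufd-1 upstream: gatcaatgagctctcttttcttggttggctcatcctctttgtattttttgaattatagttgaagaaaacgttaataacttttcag

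npl-4.1 (WBGene00019120, chrII:5631351-5633284, plus strand, 7 exons) and npl-4.2 (WBGene00019121, chrII:5622889-5624959, plus strand, 7 exons) encode the other partner of UFD-1. Both had 0 promoter and 0 gene body entries in the 4 lists. The nearest pooled summits were weak, at 9128 bp downstream of the 5′ end of npl-4.1 (signal 15.3, place 9041 of 10082) and at -2911 bp from npl-4.2 (signal 15.2, place 9154, q-value 0.931). Upstream of npl-4.1 lies F59E12.6 with a gap of 399 bp, and upstream of npl-4.2 lies eif-3.L, a subunit of translation initiation factor eIF3, with a gap of 405 bp. Both neighbours run the other way.

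The npl-4 genes are nearly identical copies whose 5′ ends lie 8462 bp apart. Their coding sequences share 1579 of 1587 bases (99.5%), and their promoter windows differ at 1 of 1201 bases. The 1325 bases directly upstream of the 5′ ends are the same in both. The last 150 of these are printed for each gene to show the copy (chrII:5631201-5631350 and chrII:5622739-5622888). They hold 0 WGATAR matches.
npl-4.1 upstream: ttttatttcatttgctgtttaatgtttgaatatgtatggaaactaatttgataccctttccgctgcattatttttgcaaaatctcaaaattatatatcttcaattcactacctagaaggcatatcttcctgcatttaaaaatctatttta
npl-4.2 upstream: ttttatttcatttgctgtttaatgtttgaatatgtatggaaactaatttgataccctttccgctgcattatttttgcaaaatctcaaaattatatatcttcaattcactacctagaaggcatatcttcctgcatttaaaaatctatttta

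A short read from such identical stretches matches both places equally well. Of the 1170 words of 32 bases in each npl-4 promoter window, 32 occur once in the genome (2.74%), and in the gene bodies 13.5% of words in npl-4.1 and 15.6% in npl-4.2 do. The promoter windows of cdc-48.2 and ufd-1 were unique throughout (100%). That of cdc-48.1 was 89.9% unique, with repeated words between -1000 and -797 bp, most of which recur at chrII:10565169-10565372 within C06A1.7. The IDR and replicate 2 entries of cdc-48.1 and the pooled entry of cdc-48.2 consisted of unique words alone. Over all protein-coding genes, 254 promoter windows (1.27%) had under 10% unique words, a limit set after the data were seen. Of these 254, 0 had a summit in any of the IDR, pooled, replicate 1 and replicate 2 lists (exact interval 0 to 1.44%). The 254 include npl-4.1 and npl-4.2 themselves, whose lack of entries was already known. Other such windows may also be copies of each other, so the interval, which treats windows as independent, may be too narrow. Of the 12482 windows with unique words alone, 4.29% had a summit in the IDR list, 21.1% in the pool, 22.1% in replicate 1 and 6.20% in replicate 2. Neither the read length nor the handling of reads with several places is stated in the sources used here. For npl-4.1 and npl-4.2, having no entry therefore cannot be told apart from having almost no sequence of their own. ufd-1 has 0 entries in a window that is unique throughout, but most of that window lies inside the upstream gene F19B6.1.

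**Figure D3:**
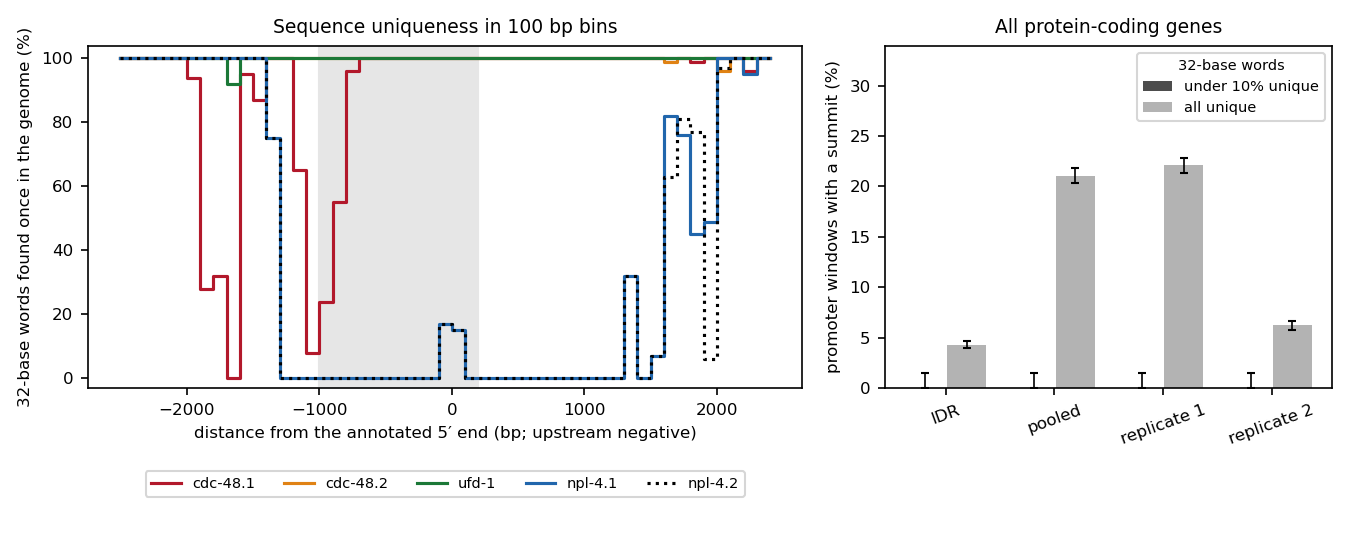
Left, share of 32-base words that occur once in the genome, in 100 bp bins by distance from the 5′ end of each gene, with the promoter window shaded; within the shaded window the line of cdc-48.2 lies under that of ufd-1 at 100%. Right, share of promoter windows with a summit in each list, for the 254 windows under 10% unique (dark, all at 0) and the 12482 unique ones (light), with 95% exact intervals.

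The paralogous cdc-48 genes, by contrast, can be told apart. Their coding sequences are 75.5% identical over the alignment and their promoter windows 50.3%, with 2 identical bases directly upstream of the 5′ ends. The third gene with the name, cdc-48.3 on chromosome I, had 0 promoter summits in each of the 4 lists. Its gene body had 2 summits in the pool and 1 in replicate 1, where 19.4% and 20.6% of all genes had any. In the IDR and replicate 2 lists its gene body had 0, beside 1.65% and 10.9% of all genes.

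Other genes of the CDC-48 pathway were looked up from lists of adaptors and partner enzymes and of ER-associated degradation genes. Of 13 adaptor and partner genes found in the annotation, 3 had an IDR promoter summit, and of 6 ER-associated degradation genes 0 had one, beside 3.44% of all genes. The 3 were ufd-3, a homologue of the ubiquitin-binding adaptor PLAA, ubxn-2, a homologue of the adaptor p47, and ubxn-3, a homologue of FAF1 that acts in replisome disassembly. ufd-3 had a signal of 42.6 at place 820 with the summit at -129 bp. ubxn-2 had 40.0 at place 960 with the summit at -169 bp, and ubxn-3 had 37.0 at place 1113 with the summit at -655 bp. All 3 stood below the IDR median of 48.0, whereas cdc-48.1 stood at 204.0. ufd-3 and ubxn-2 had 1 WGATAR match each within 50 bp of the summit and ubxn-3 had 0. With the 1202 strongest nuclear entries of replicate 2 used instead of the IDR list, 1 of the 19 pathway genes had a promoter summit, beside 1.57% of all genes.

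In the pooled list, 4 of the 13 adaptor and partner genes and 2 of the 6 degradation genes had a promoter summit, beside 17.9% of all genes. The additional ones were weak. ufd-2, which encodes an E4 ubiquitin ligase, had a signal of 23.0 and a q-value of 0.233. hrdl-1, a HRD1-like ubiquitin ligase gene, had 17.7 and a q-value of 0.714. cup-2, a derlin gene, had 17.4 and a q-value of 0.747 in an entry shared with the promoter window of tag-353. Replicate 1 had promoter summits at 5 of the 13, adding chn-1, and at 2 of the 6, beside 18.7% of all genes. chn-1, the CHIP ubiquitin ligase gene, had a signal of 14.8 and a q-value of 0.920 in an entry shared with the promoter window of T09B4.2. In replicate 2, ubxn-2 was the 1 gene of the 19 with a promoter summit, beside 5.3% of all genes, and it had 2 there, at -444 bp (signal 4.46, place 243) and -714 bp (signal 4.03, place 391). Like cdc-48.1 it thus had a promoter entry in all 4 lists, but its replicate 2 summits lay farther from its IDR summit than the 10 bp seen at cdc-48.1.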

How the data were processed

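The authors deposited peak lists in the narrowPeak layout, of which the ce11 lists were used. Each entry has a signal, deposited by the authors with no stated unit, and a q-value, which the authors deposited as −log10 and which is given here as q. Which aligner and which peak caller made them is not given in the sources used here. Genes came from Ensembl release 115 (WBcel235, the same assembly as ce11), and coordinates are 1-based. Summits were counted per gene, ranked by signal within each list, and searched for WGATAR on both strands within 50 bp. Words of 32 bases were counted on both strands of the genome, and paralogues were aligned with Biopython 1.88. Python 3.11.15, pandas 2.3.3 and SciPy 1.17.1 were used. Intervals are exact 95% Clopper-Pearson intervals and cover counting error only. The counting was tested on simulated data. The genes and lists were chosen with earlier results of these data known. Named genes were the 5 genes, pathway genes with an IDR promoter summit, up to 6 with a pooled one only, the 3 genes most like cdc-48.1, and neighbours. chn-1 and cdc-48.3 were named after their values were seen. yod-1 had no match in the annotation.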

Additional observations from a re-analysis of the deposited data

How the results depend on the processing

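Over 12 results and 60 alternatives, 35 values were the same or close to the value given, by limits set for each kind of value, and 25 moved. Values moved as follows. With a window from 500 bp before to 100 bp after the 5′ end, which leaves out the cdc-48.2 summit at -847 bp, 1 of the 5 genes had a pooled and 1 a replicate 1 summit, and the shares of all genes were 2.61% (IDR) and 12.5% (pooled). With 2000 bp before and 200 bp after, 2 of the 5 had a replicate 2 summit, and the shares were 4.85% and 25.3%. Counting any shared bp gave 3.71% and 20.1%, and the 5′ end of any transcript 3.87% and 19.98%. The stronger part of each list gave 1.83% (601 IDR entries, with 0 pathway genes) and 11.3% (pooled), and the 1897 pooled entries with q under 0.05 gave 5.30%. With the IDR list replaced by the 1202 strongest nuclear entries of 1 replicate, the share of genes ran from 1.57% to 3.45% and pathway genes from 1 to 3. The percentile of cdc-48.1 ran from 99.1 to 99.8, and each of these values was lowest without replicate 1. A match was found at 1 of the 2 pooled cdc-48 summits when the whole entry was searched, and at 1 with the word GATA, against 0 within 50 bp. The share of IDR promoter summits with a match was 16.6% within 25 bp, 43.4% within 100 bp, 54.0% over the whole entry, 50.8% for GATA and 15.5% for TGATAA. Under every alternative to the IDR count, including lists of 1 replicate, cdc-48.1 was the 1 gene of the 5 with a promoter summit. Its IDR summit at -162 bp and place 2 lay inside every window and list part tried, so this lends no support. Depth is unknown and the control was not analysed here, so an absent entry does not show absent binding.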
